A study of Rattus norvegicus with 12 samples.

Results

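The change between 2 stages of recovery from ischemia-reperfusion injury (IRI) was measured in rat kidney, by setting the kidneys of 4 rats at day 7 after the operation against those of 4 rats at day 3. These 8 arrays are part of a set of 12, the others being 4 arrays of sham-operated rats, and all genes measured on them were compared. The rats were female F344, an inbred strain, 10 weeks old. In the injured groups the blood supply of the left kidney alone had been stopped for a time and then restored. RNA of the whole left kidney was read on an Agilent single-colour microarray. Sham rats were killed at day 7 only. A difference of the day 3 arrays from sham also spans 4 days of recovery from surgery. The labels count the 4 arrays of a group as 4 rats. The title of the series names adaptive and maladaptive repair of renal tubules, and the question asked here was which functions differed between the days, and in which direction.

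After ischemia, tubule cells of the kidney die or lose their brush border, and surviving cells flatten, switch off transport genes, enter the cell cycle and spread over the bare basement membrane. In adaptive repair these cells stop dividing and take up their transport and metabolic work again. In maladaptive repair some tubules stay dedifferentiated and signal to immune cells and fibroblasts. In the RNA of a whole kidney, fewer cells of a type and less RNA per cell cannot be told apart.

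Each array's signals were divided by their own 75th percentile and are given in log2, so 0 is the level that 75% of the array's probes do not exceed, and a difference of 1 is 2-fold. Errors of levels are SDs over the 4 arrays of a group. Errors of fold changes are standard errors (SE) from limma. A gene was called at an adjusted p under 0.05. In all, 18505 genes were tested. The unscaled 75th percentile was 665 to 743 intensity units at day 3 and 422 to 562 at day 7, 1.42 times higher at day 3 (two-sided exact permutation p = 0.0286, the smallest that 4 arrays against 4 can give), and all values below are relative to it. The number of arrays limits the precision. Markers of the tissue that the labels name were present, with Slc34a1 (proximal tubule), Umod (thick ascending limb), Aqp2 (collecting duct) and Nphs1 (podocyte) well above background on all 12 arrays.

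Between day 3 and day 7, 5816 genes were called (31.4% of those tested), 3334 higher (18%) and 2482 lower (13.4%), and 2356 were called with at least a 2-fold difference (12.7%). Day 3 and day 7 arrays lay fully apart in 36.2% of the genes tested, among them 4960 of those called. On the same arrays, 3492 genes were called at day 7 against sham (18.9%; 8.22% higher and 10.6% lower) and 10603 at day 3 against sham (57.3%; 24.2% higher and 33.1% lower). These comparisons share arrays with that of day 7 with day 3, so they are given only side by side. The count of called genes rested on single arrays: it was 3474 without day 3 replicate 4, 3705 without day 3 replicate 2 and 3862 without day 7 replicate 4. Another background correction, normexp, left 159 calls, and 7855 once the spots below their local background had been left out of it. Of the 198 called genes that the rule for naming genes picked, 44 kept their call under the first of these and 189 under the second.

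**Figure D1:**
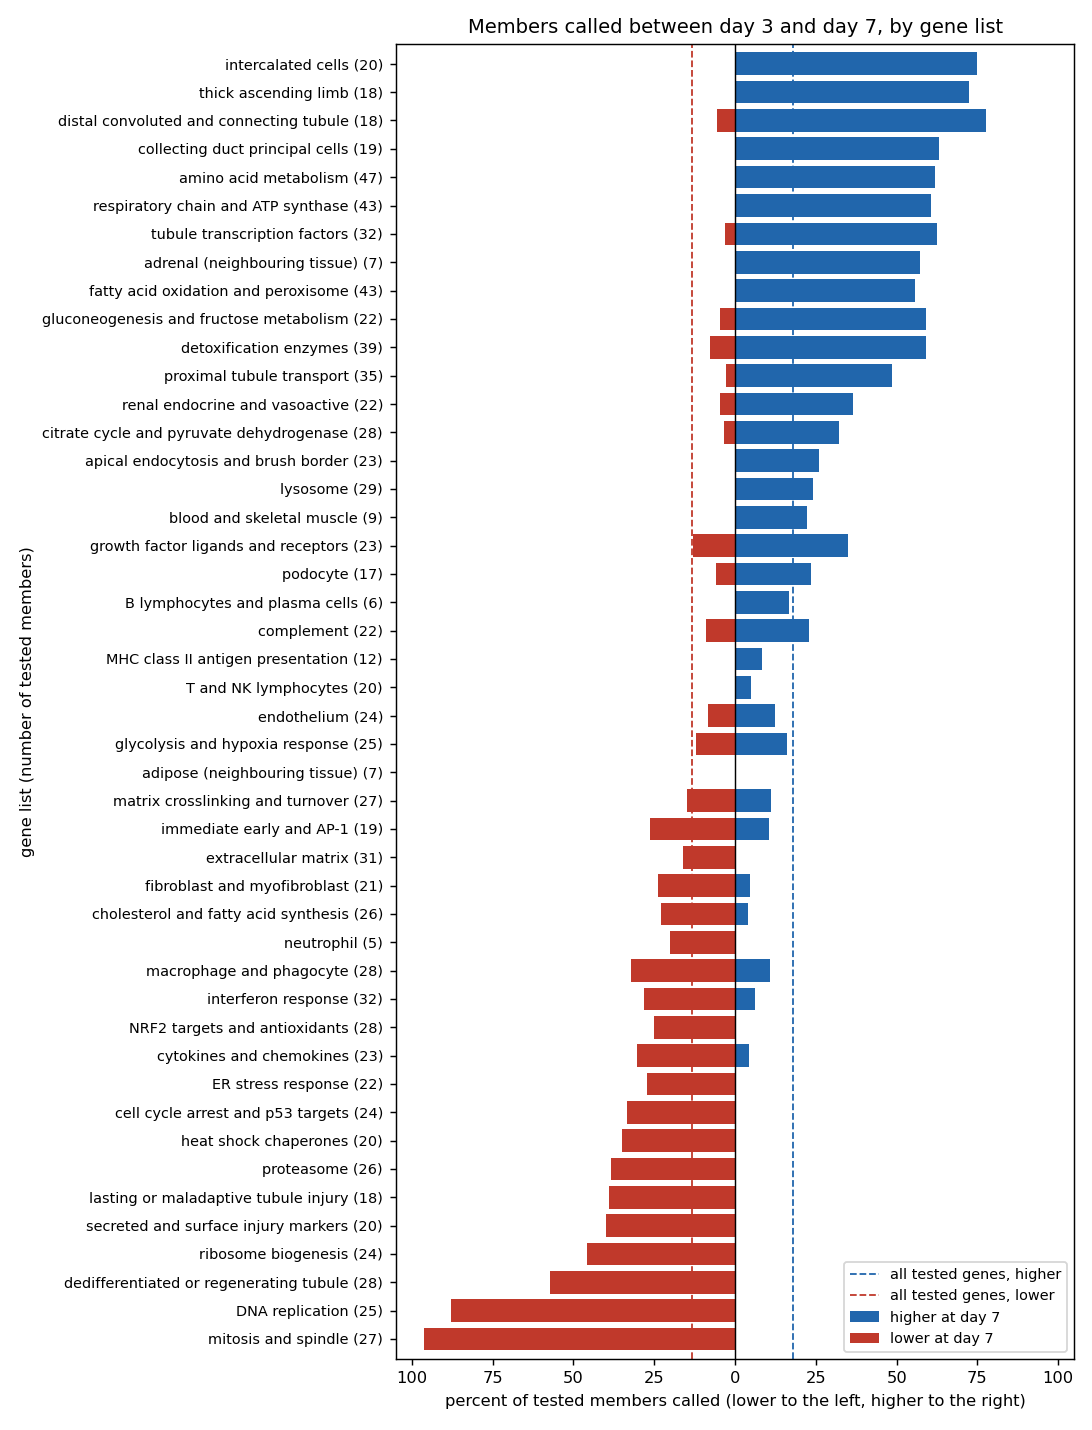
For each gene list, bars show the percent of its tested members called higher (right, blue) or lower (left, red) at day 7 than at day 3, and dashed lines show the same over all tested genes (18% and 13.4%). The mitosis and DNA replication lists lie farthest to the left with 26 of 27 and 22 of 25 members lower, and the lists of the distal nephron and collecting duct lie farthest to the right.

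Genes of cell division were lower at day 7 in nearly all of the members tested. In the mitosis and spindle list 26 of 27 tested genes fell and 0 rose, with a median log2 fold change of -2.26, or -2.22 with 3 genes that stood above background on no day 7 array set at their bound. In the DNA replication list 22 of 25 fell and 0 rose, with a median of -1.57. The median over all tested genes was 0.05. When any 1 array was left out, 24 to 26 mitosis genes and 18 to 22 replication genes were called. With only genes above background on all 8 injured arrays tested, 16 of 17 and 14 of 15 were called. Within the 3 slides the medians were -1.68, -1.74 and -2.71 for mitosis and -1.05, -1.46 and -1.96 for replication.

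Ccnb1, which encodes cyclin B1 that drives entry into mitosis, read 0.28, 0.71, 0.29 and 0.67 on the day 3 arrays and -2.16, -2.67, -1.47 and -3.12 on the day 7 arrays. It fell 7.19-fold (log2 fold change -2.85 ± 0.30 SE, adjusted p = 0.000251), or -2.11 in log2 by normexp without spots below their local background. No day 7 array reached the lowest day 3 array, and sham stood lower still at -3.69 ± 0.32 (SD, n = 4). Cdk1, the kinase that cyclin B1 activates, read 0.81, 1.21, 0.98 and 1.20 at day 3 and -1.08, -1.35, -0.63 and -1.95 at day 7, a fall of 4.93-fold (-2.30 ± 0.33 SE, adjusted p = 0.00111). Pttg1, the securin that holds back the separation of sister chromatids until anaphase, read 1.59, 1.72, 1.57 and 1.56 at day 3 and -0.26, -1.31, -0.58 and -1.74 at day 7, a fall of 5.98-fold. For both, the groups did not overlap and day 7 replicate 4 was the lowest of the injured arrays. Plk1, a kinase of spindle assembly, fell 7.19-fold, from 2.10 ± 0.26 to -0.75 ± 1.21 (SD, n = 4 each). Its day 7 value rested on replicate 4, which read -2.52 against -0.36, -0.33 and 0.22, and the log2 fold change was -2.26 without that array against -2.85 with it. Ttk, a checkpoint kinase, was above background on all day 3 arrays and on no day 7 array, and was at least 6.07-fold lower, or -1.54 in log2 by normexp without spots below their local background. Kif11, a spindle motor, was the 1 tested member not called (-0.60 ± 0.29 SE, adjusted p = 0.125).

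Rrm2, the ribonucleotide reductase subunit that makes DNA precursors, read 2.83, 3.23, 2.47 and 3.41 at day 3 and 0.48, 0.22, 0.73 and -0.70 at day 7. It fell 6.98-fold (-2.80 ± 0.44 SE, adjusted p = 0.00156) and the groups lay more than 1 log2 unit apart. Mcm3 and Mcm5, subunits of the replicative helicase, fell 5.69-fold (adjusted p = 0.00119) and 3.99-fold (adjusted p = 0.00817). Mcm3 read 0.65, 1.08, 0.04 and 0.90 at day 3 and -1.26, -2.03, -2.04 and -2.04 at day 7.

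The fall did not end at the sham level for all of these genes. At day 7, 15 of the 27 mitosis genes and 9 of the 25 replication genes were still called above sham and 0 below it, with medians of 1.33 and 0.74, or 1.13 and 0.68 with the 6 and 3 genes above background on no sham array set at their bounds. Top2a, the topoisomerase that untangles chromosomes, fell from -0.44 ± 0.59 to -2.02 ± 0.54 (SD, n = 4 each) and was at least 3.75-fold above sham at day 7 (adjusted p = 0.000579), since no sham array was above background. Cdk1 was 4.30-fold and Rrm2 6.46-fold above sham at day 7 (adjusted p = 0.00226 and 0.0026). Mcm5 was 2.50-fold above sham with an adjusted p of 0.0604.

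The promoters of these genes are shown because 2 short elements recur in them. The CHR element, TTTGAA or TTTAAA, and the CCAAT box are known as sites through which promoters of late cell cycle genes are controlled, the first by the DREAM and MuvB complexes and the second by NF-Y, and E2F sites are known from genes of DNA synthesis. RefSeq promoter windows of build GRCr8, from 250 bases before to 50 bases after the gene start, were given for 23 of the 27 mitosis genes and 21 of the 25 replication genes, and both strands were searched. A CHR element was found in 23 of 23 mitosis promoters, in 3 of 21 replication promoters (14.3%), in 27.9% of all 27457 promoters and in 18.3% of those of tested genes that were not called. CCAAT was found in 69.6% of the mitosis promoters, 61.9% of the replication promoters and 37.7% of all promoters. An E2F site, TTTCCCGC or TTTGGCGC, was found in 9 of 21 replication promoters (42.9%), in 0 of 23 mitosis promoters and in 1.5% of all promoters. Over all genes lower at day 7 the shares were 23.4% for CHR, 40.2% for CCAAT and 4.3% for E2F, and over all genes higher at day 7 they were 20.5%, 38.2% and 1.9%. A match is a string of letters in the window and not a shown binding site. The 150 bases before the start of 4 mitosis genes are given 5′ to 3′ with the CCAAT box and the CHR element in capitals on either strand, where ATTGG is CCAAT and TTCAAA is TTTGAA on the other strand. They are from chr2:33655226-33655375 on the minus strand for Ccnb1, chr20:19265143-19265292 on the plus strand for Cdk1, chr1:186147508-186147657 on the plus strand for Plk1 and chr10:28406327-28406476 on the minus strand for Pttg1.
Ccnb1: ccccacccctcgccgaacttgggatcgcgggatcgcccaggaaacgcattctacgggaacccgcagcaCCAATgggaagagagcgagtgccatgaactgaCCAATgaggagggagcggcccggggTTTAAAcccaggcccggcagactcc
Cdk1: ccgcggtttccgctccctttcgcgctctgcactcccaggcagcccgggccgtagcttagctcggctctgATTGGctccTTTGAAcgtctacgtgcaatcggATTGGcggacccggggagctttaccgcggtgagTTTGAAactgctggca
Plk1: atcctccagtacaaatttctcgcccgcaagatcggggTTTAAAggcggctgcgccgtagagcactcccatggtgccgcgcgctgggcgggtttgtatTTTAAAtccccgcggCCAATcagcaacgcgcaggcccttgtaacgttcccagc
Pttg1: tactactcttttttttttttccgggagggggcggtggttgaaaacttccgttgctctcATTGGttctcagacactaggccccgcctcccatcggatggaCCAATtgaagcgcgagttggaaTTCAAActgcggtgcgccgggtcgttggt

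For contrast, the same stretch of 2 helicase genes is given from chr19:13488663-13488812 on the plus strand for Mcm5 and chr13:42404353-42404502 on the minus strand for Mcm6, with the CCAAT box and the E2F site in capitals on either strand. Neither holds a CHR element in these 150 bases.
Mcm5: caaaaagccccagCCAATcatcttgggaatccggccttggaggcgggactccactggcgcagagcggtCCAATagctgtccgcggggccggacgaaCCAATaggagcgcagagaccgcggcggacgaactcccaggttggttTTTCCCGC
Mcm6: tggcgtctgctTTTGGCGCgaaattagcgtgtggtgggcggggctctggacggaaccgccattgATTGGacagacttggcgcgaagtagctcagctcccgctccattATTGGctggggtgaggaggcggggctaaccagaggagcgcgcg

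**Figure D2:**
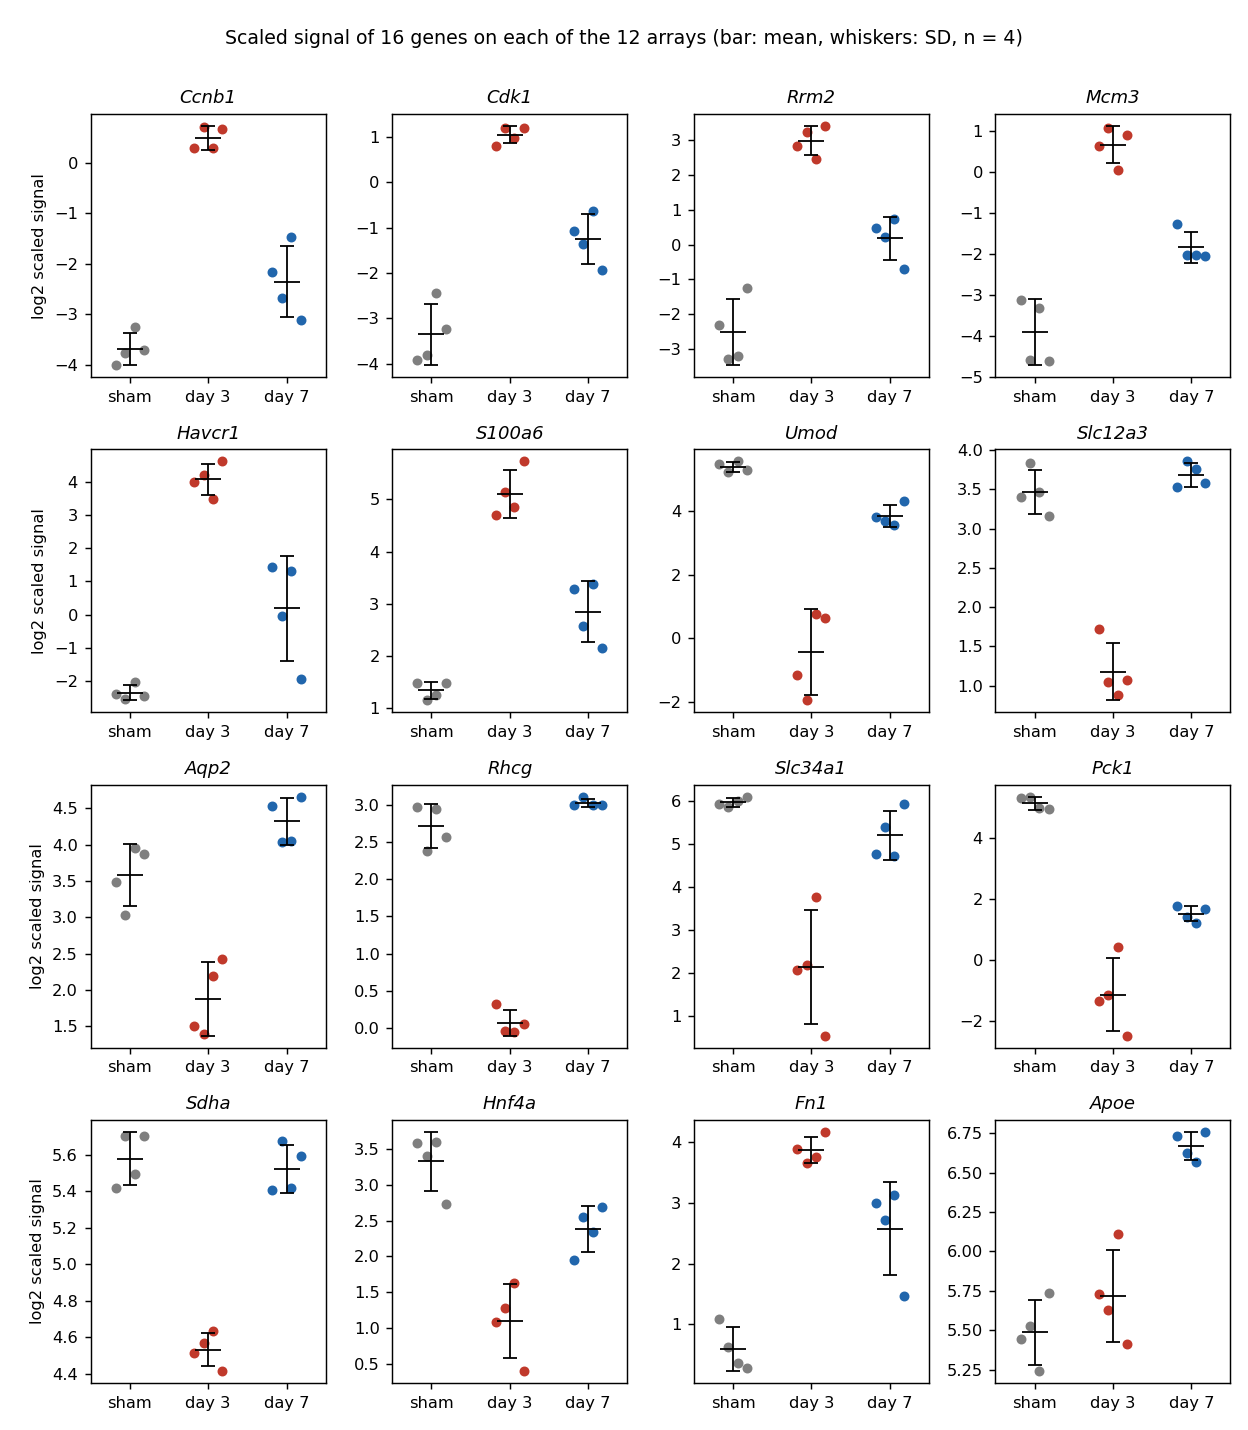
Each panel plots the scaled log2 signal of 1 gene, on the 4 sham, 4 day 3 and 4 day 7 arrays (points), with the mean and SD (n = 4). Ccnb1 and Rrm2 fell from day 3 to day 7 and Slc12a3 and Sdha rose to levels that overlap sham, Rhcg rose to 3.03, just above the sham arrays, and Pck1 rose to 1.53 and stayed far below its sham mean of 5.16.

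Of 24 tested genes that stop the cell cycle or answer to p53, 8 fell and 0 rose, with a median of -0.26, and 5 fell without day 3 replicate 4 or without day 7 replicate 4. By normexp 0 fell and the median was 0.0387. In the main fit the share called in either direction, 33.3%, was near the 31.4% of all genes (13.4% lower). Ccng1, which encodes cyclin G1 and is a target of p53, fell 2.67-fold, from 1.96, 2.32, 1.48 and 2.27 at day 3 to 0.54, 0.52, 0.86 and 0.44 at day 7 (adjusted p = 0.00094). These day 7 values overlap those of sham, which averaged 0.62 ± 0.21 (SD, n = 4). Phlda3, a p53 target that restrains the kinase Akt, fell 2.65-fold. For Cdkn1a, which encodes the inhibitor p21, the 2 probes gave different results. The brighter one stood at -0.28 ± 0.20 SE (adjusted p = 0.302 in the test over genes) and the other at -1.56 ± 0.39 SE (adjusted p = 0.0131), and the mean of both at -0.92 passed, so the gene has no single value here.

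Genes for making and folding proteins were lower at day 7 in part. In the ribosome biogenesis list 11 of 24 tested genes fell (median -0.65), in the proteasome list 10 of 26 (median -0.45), among heat shock chaperones 7 of 20 (median -0.33) and in the endoplasmic reticulum (ER) stress list 6 of 22 (median -0.29), and 0 rose in each. In that order 45.8%, 38.5%, 35% and 27.3% of the lists were called, against 31.4% of all genes (13.4% lower). The ER stress count was 3 without day 3 replicate 2 or 4 or without day 7 replicate 1 or 4. In the proteasome list day 3 and day 7 arrays lay fully apart for 22 of 26 members, all lower at day 7. Over all genes 36.2% lay fully apart in either direction. With only the 8 injured arrays in the fit 16 proteasome genes were called, and 18 by normexp without spots below their local background. Nhp2, a protein of small nucleolar particles, fell 4.21-fold, from 2.29, 2.54, 1.95 and 2.87 to 0.06, 0.12, 0.76 and 0.41 (adjusted p = 0.000215), a range that overlaps sham. Psmd14, the subunit that strips ubiquitin from proteasome substrates, fell 2.50-fold (adjusted p = 0.00438). The chaperone genes Hsp90aa1 and Cct2 fell 2.26-fold and 2.54-fold, and the ER protein isomerase gene Pdia6 fell 2.12-fold. Hspa5, the main chaperone of the ER stress response, stood at -0.31 ± 0.16 SE (adjusted p = 0.155). Each of the 4 lists had a median within 0.2 of sham at day 7.

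Markers of tubule injury fell in part. Of 20 secreted and surface injury markers, 8 fell and 0 rose (median -0.58). Havcr1, which encodes the kidney injury molecule KIM-1 of the proximal tubule, read 3.99, 4.20, 3.46 and 4.61 at day 3 and 1.44, -0.04, 1.30 and -1.93 at day 7. It fell 14.7-fold (-3.87 ± 0.59 SE, adjusted p = 0.00141), and by 3.17 on the log2 scale without day 7 replicate 4, the array nearest to the sham mean of -2.34. All day 7 arrays lay below all day 3 arrays and above the sham mean, and the gene was still 5.80-fold above sham (adjusted p = 0.0136). Gdf15, a stress hormone, read 3.20, 3.35, 3.02 and 3.30 at day 3 and 1.24, 1.16, 1.32 and 0.46 at day 7, a fall of 4.52-fold (adjusted p = 0.0006) to a level not called different from sham. Lcn2, the iron-trapping protein NGAL, fell 2.44-fold and remained 1.94-fold above sham (adjusted p = 0.0368).

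Spp1 and Clu were not called between the days and lay above sham at day 7. Spp1, which encodes osteopontin, read 3.78, 3.74, 4.05 and 3.55 at day 3 and 4.04, 3.67, 4.24 and 2.32 at day 7 (-0.22 ± 0.37 SE, adjusted p = 0.672). Its groups overlapped, and at day 7 it stood 7.08 ± 0.37 SE above sham on the log2 scale. Clu, the secreted chaperone clusterin, read 3.60, 3.15, 3.55 and 3.51 at day 3 and 3.15, 2.12, 3.38 and 0.73 at day 7 (-1.11 ± 0.45 SE, adjusted p = 0.0778), and it passed without day 7 replicate 1 or 3 and by normexp without spots below their local background. At day 7 it was 12.4-fold above sham (3.63 ± 0.45 SE in log2, adjusted p = 0.000683).

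In the list of dedifferentiated or regenerating tubule genes 16 of 28 fell and 0 rose (median -0.90), while 16 were still above sham at day 7 and 0 below. S100a6, a calcium-binding protein of spreading cells, read 4.70, 5.14, 4.85 and 5.73 at day 3 and 3.29, 2.58, 3.37 and 2.15 at day 7. It fell 4.78-fold (adjusted p = 0.000616) to 2.85-fold above sham (adjusted p = 0.00533), and the 3 groups did not overlap. Vim, the filament protein vimentin, fell 4.45-fold (adjusted p = 0.00555), from 3.00 ± 0.74 to 0.84 ± 0.90 (SD, n = 4 each), and Tubb6, a beta tubulin, fell 6.16-fold (adjusted p = 0.0114). Members that were not called included Sox9, the transcription factor of repairing tubules, at -0.26 ± 0.51 SE (adjusted p = 0.713), the adhesion receptor gene Cd44 at -0.41 ± 0.25 SE (adjusted p = 0.224) and the surface protein gene Cd24 at -0.31. That value of Cd44 is from its brighter probe, and it passed without day 3 replicate 3 and with the mean of its probes (-1.02). A second probe of similar level stood at -1.64 ± 0.56 SE (adjusted p = 0.0449), so the gene has no single value here. Sox9 was 4.72-fold above sham at day 7 (adjusted p = 0.012) and Cd44 1.86-fold by its brighter probe (adjusted p = 0.0293). The second Cd44 probe stood 2.33 above sham in log2 (adjusted p = 0.0159), against 0.89 for the brighter one.

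Among genes linked to lasting or maladaptive tubule injury, 7 of 18 fell and 0 rose (median -0.69). Ccl2, the chemokine that draws monocytes, read -1.002, -0.72, -1.11 and -1.11 at day 3 and -3.60, -6.22, -3.01 and -5.68 at day 7, where 2 of 4 arrays were above background. It fell 12.5-fold (adjusted p = 0.00187), a size that rests on signals at the background and was -1.70 in log2 by normexp without spots below their local background, against -3.64. Tgfb1, a growth factor of fibrosis, fell 1.62-fold (adjusted p = 0.00975). Vcam1, an adhesion molecule of tubules in failed repair, stood at -0.08 ± 0.24 SE (adjusted p = 0.817) and was 1.91-fold above sham at day 7 (adjusted p = 0.0223).

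Genes of the distal nephron rose, and most were not called different from sham at day 7. In the thick ascending limb list 13 of 18 tested genes rose and 0 fell (median 1.48), in the list for the distal convoluted and connecting tubules 14 of 18 rose and 1 fell (median 0.97), and the counts were 13 to 14 and 11 to 14 when any 1 array was left out. At day 7 the medians against sham were 0.05 and -0.06. Umod, the thick ascending limb protein uromodulin, read -1.16, -1.95, 0.75 and 0.64 at day 3 and 3.80, 3.69, 3.57 and 4.32 at day 7. It rose 19.4-fold (4.28 ± 0.50 SE, adjusted p = 0.000405) without overlap, and all day 7 arrays lay under the sham mean of 5.39 (adjusted p = 0.0509 against sham). Ppp1r1a, a phosphatase inhibitor of this segment, read -0.98, -2.12, -0.05 and -1.12 at day 3 and 2.08, 3.06, 2.86 and 3.44 at day 7, a rise of 15.3-fold (adjusted p = 0.000129). Slc12a1, the sodium-potassium-chloride transporter blocked by loop diuretics, rose 3.06-fold, from 0.83 ± 0.67 to 2.44 ± 0.12 (SD, n = 4 each; adjusted p = 0.00222). The summed level of the list's genes was 25.7 to 31.4 times the 75th percentile at day 3, 77.7 to 97.0 at day 7 and 125 to 148 in sham, so the sum, which large signals dominate, stayed below sham while the median did not.

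Slc12a3, the thiazide-sensitive sodium-chloride transporter of the distal convoluted tubule, read 1.72, 1.05, 0.88 and 1.07 at day 3 and 3.53, 3.86, 3.76 and 3.58 at day 7. It rose 5.66-fold (2.50 ± 0.20 SE, adjusted p = 5.19e-05), to a level that overlapped sham (3.47 ± 0.28, SD, n = 4). Calb1, which encodes the calcium buffer calbindin, had the largest rise among all genes named here, 6.86 ± 0.35 SE in log2 (adjusted p = 1.51e-06). It read -3.63, -3.76, -5.06 and -2.95 at day 3, where 3 of 4 arrays were above background, and 2.86, 3.22, 2.86 and 3.09 at day 7. All day 7 arrays lay above all sham arrays, by 2.99-fold on average (adjusted p = 0.0104). Its rise was 5.29 by normexp without spots below their local background. Dnase1, an endonuclease secreted into urine, is in no list and rose 22.8-fold, from -0.47, -0.84, -0.58 and -0.40 to 4.20, 4.00, 3.45 and 4.10 (adjusted p = 4.33e-07). Egf, the growth factor made in the distal nephron, rose 12.3-fold, from -2.67, -2.88, -1.63 and -2.21 to 0.43, 1.71, 0.87 and 2.08 (adjusted p = 0.000138), or by 3.02 in log2 by normexp without spots below their local background against 3.62, and was 4.07-fold below sham at day 7 (adjusted p = 0.00366).

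In the collecting duct, genes of water and sodium transport rose, and part of the principal cell list, which holds other genes too, lay above sham at day 7. Of 19 tested principal cell genes 12 rose and 0 fell (median 1.44), and 12 rose whichever array was left out. At day 7, 9 were above sham and 0 below (median 0.80), while at day 3, 4 were above and 10 below. Hsd11b2, which shields the aldosterone receptor from glucocorticoids, read 1.28, 1.20, 1.65 and 0.87 at day 3 and 4.05, 3.83, 3.68 and 3.88 at day 7. It rose 6.10-fold (adjusted p = 4.98e-05) to 2.46-fold above sham (adjusted p = 0.00232), and no group overlapped another. Aqp2, the water channel under vasopressin control, read 1.51, 1.39, 2.19 and 2.42 at day 3 and 4.54, 4.03, 4.06 and 4.66 at day 7, a rise of 5.45-fold (adjusted p = 0.000338). Its level at day 7 lay above all sham arrays, though the difference did not pass (0.74 ± 0.28 SE, adjusted p = 0.0843). Scnn1g, a subunit of the epithelial sodium channel, rose 8.03-fold (adjusted p = 0.000151). Aqp4, a basolateral water channel, rose 9.23-fold (adjusted p = 0.00277). Day 3 replicate 2 was at -4.98 against -2.57, -1.87 and -3.07, and the log2 rise was 2.59 without it against 3.21. It was 1.90 from the probe above background on all 8 injured arrays, 2.49 with the mean of its probes and 2.29 by normexp without spots below their local background. At day 7 the brightest probe stood 2.81 above sham in log2 (adjusted p = 0.00725), while the probe above background on all 8 injured arrays stood at 0.82 and did not pass (adjusted p = 0.0747). The claudin genes of the list, which seal tight junctions, were not among those that rose, except Cldn8 at 1.20: Cldn3, Cldn4 and Cldn7 stood at -0.32, -0.59 and -0.66.

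Intercalated cells, which move acid and base into the urine, had 15 of 20 tested genes higher and 0 lower (median 1.67), 14 to 15 when any 1 array was left out. Rhcg, an ammonia channel, read 0.32, -0.04, -0.05 and 0.05 at day 3 and 3.01, 3.12, 3.00 and 3.00 at day 7. It rose 7.80-fold (2.96 ± 0.16 SE, adjusted p = 2.26e-06), and its day 7 arrays all lay just above the highest sham array, a difference of 1.24-fold that did not pass (adjusted p = 0.193). Atp6v1b1, a subunit of the proton pump, rose 6.25-fold (adjusted p = 6.03e-05), from -0.05 ± 0.46 to 2.59 ± 0.13 (SD, n = 4 each), and Foxi1, the transcription factor that specifies these cells, rose 3.95-fold (adjusted p = 0.00139). Slc4a1, the chloride-bicarbonate exchanger, rose 5.07-fold (adjusted p = 0.000278) and was 1.76-fold below sham at day 7 (adjusted p = 0.0434). It is also a gene of red blood cells, whose haemoglobin genes Hba-a1 and Hbb stood at 0.32 and -0.15, and at -0.29 and -0.20 by their second probes. The part of blood in the rise of Slc4a1 was not tested. The summed level of the intercalated cell genes was 23.7 to 36.3 at day 3, 72.9 to 81.3 at day 7 and 74.8 to 91.0 in sham, so the injured groups were apart and day 7 overlapped sham.

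The proximal tubule, which reabsorbs most of the filtrate, rose in part and stayed below sham in many genes. Of 35 tested transport genes 17 rose and 1 fell (median 1.01), while 13 were below sham and 1 above at day 7 (median -0.84). The count of those that rose was 12 to 22 when any 1 array was left out, and the medians within the slides were 0.38, 1.06 and 0.87. Slc34a1, the phosphate transporter of the brush border, read 2.07, 2.20, 3.78 and 0.55 at day 3 and 4.76, 5.39, 4.74 and 5.93 at day 7. It rose 8.33-fold (3.06 ± 0.52 SE, adjusted p = 0.00221), without overlap, and its difference from sham at day 7 did not pass (-0.77 ± 0.52 SE, adjusted p = 0.326). Slc22a6, the organic anion transporter OAT1, read 1.53, 1.34, 3.14 and 0.15 at day 3 and 4.17, 5.07, 4.04 and 5.26 at day 7, a rise of 8.56-fold (adjusted p = 0.00175), and was 3.23-fold below sham (adjusted p = 0.0355). In both, day 3 replicate 3 was the highest and replicate 4 the lowest of its group. The transporter gene that fell was Slc2a2, the basolateral glucose transporter GLUT2, from 2.99, 2.74, 3.03 and 2.81 to 2.33, 1.21, 2.24 and 1.31 (2.17-fold, adjusted p = 0.00765). It had been above sham at day 3 and was 2.03-fold above it at day 7 (adjusted p = 0.0164).

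Other transporter genes were not called between the days. Slc22a7, the organic anion transporter OAT2, read -4.41, -4.13, -2.77 and -4.08 at day 3 and -2.64, -2.41, -3.74 and -2.08 at day 7 (1.13 ± 0.40 SE, adjusted p = 0.0508), against 1.0005 ± 0.40 (SD, n = 4) in sham. It passed without day 3 replicate 3, without day 7 replicate 3, with the scan batch as a block and by normexp without spots below their local background. Slc7a13, an amino acid transporter of the last part of the proximal tubule, stood at 0.57 ± 0.58 SE (adjusted p = 0.466) and was 13.7-fold below sham at day 7 (adjusted p = 0.00188). Slc5a2, the glucose transporter SGLT2 of the first part, was near sham at both times (0.76 ± 0.35 SE between the days, adjusted p = 0.114). Among 23 genes of apical endocytosis and the brush border 6 rose and 0 fell (median 0.12). The share called in either direction was 26.1%, against 31.4% of all genes (18% higher). Amn, which anchors the uptake receptor cubilin, rose 3.56-fold, from 0.95, 0.53, 1.78 and -0.45 to 1.93, 2.72, 2.24 and 3.25 (adjusted p = 0.0072). Lrp2, the uptake receptor megalin, rose 1.84-fold (adjusted p = 0.0227), a call lost without day 3 replicate 2 or 4, without day 7 replicate 2 or 4 and with the replicate number as a block. Cubn, the cubilin gene itself, stood at 0.57 ± 0.24 SE (adjusted p = 0.0903) and passed without day 3 replicate 3.

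Genes of proximal tubule metabolism rose in part. In the gluconeogenesis and fructose list 13 of 22 genes rose and 1 fell (median 0.98), and 13 rose whichever array was left out. Pck1, the enzyme that commits carbon to glucose synthesis, read -1.34, -1.15, 0.44 and -2.48 at day 3 and 1.80, 1.41, 1.24 and 1.69 at day 7. It rose 6.34-fold (adjusted p = 0.00219) and was still 12.4-fold below sham at day 7 (adjusted p = 0.000684). G6pc1, which releases the glucose, read -0.87, -0.78, 0.49 and -2.50 at day 3 and 1.62, 2.26, 1.56 and 2.57 at day 7, a rise of 7.56-fold (adjusted p = 0.00272). Its difference from sham at day 7 did not pass (-1.47 ± 0.52 SE, adjusted p = 0.0681). Khk, the first enzyme of fructose use, rose 5.06-fold and was 2.43-fold below sham (adjusted p = 0.00181 and 0.0362). The gene of the list that fell was Ldha, which makes lactate, by 1.63-fold (adjusted p = 0.0113).

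In the amino acid metabolism list 29 of 47 genes rose and 0 fell (median 0.99), but 19 without day 3 replicate 4 or without day 7 replicate 4. At day 7, 21 were below sham and 1 above (median -0.86). Prodh2, which breaks down hydroxyproline, read 0.62, 0.52, 2.12 and -0.25 at day 3 and 2.99, 3.58, 2.61 and 3.65 at day 7, a rise of 5.49-fold (adjusted p = 0.00214) without overlap. Gldc, the glycine decarboxylase, went the other way in sign without a call (-0.52 ± 0.34 SE, adjusted p = 0.262). It read 0.33, 0.65, -0.50 and 0.17 at day 3 and 0.42, -0.72, -0.32 and -0.80 at day 7, and stood 14.1-fold below sham (adjusted p = 0.000113).

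Fat oxidation rose in 24 of 43 genes and fell in 0 (median 0.66), and 16 were still below sham at day 7. Acsm3 and Acsm2, which activate medium-chain fatty acids, rose 4.06-fold and 3.29-fold (adjusted p = 0.00094 and 0.00829). Acsm3 read -0.42, -0.67, -0.39 and -1.57 at day 3 and 1.26, 1.36, 1.19 and 1.23 at day 7, without overlap and near its sham mean of 1.64. Ehhadh, a peroxisomal enzyme, rose 3.11-fold and was 5.38-fold below sham (adjusted p = 0.0125 and 0.00299). Cpt1a, which lets long-chain fatty acids into mitochondria, stood at 0.12 ± 0.17 SE (adjusted p = 0.623).

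Genes of the respiratory chain and ATP synthase, the last step of energy production in mitochondria, rose by small amounts. In that list 26 of 43 genes rose and 0 fell, by a small median of 0.44, and at day 7, 0 of 43 were called above or below sham (median 0.01), against 25 below and 1 above at day 3. The rises are small and the count was 12 to 27 when any 1 array was left out. It was under 17 without day 3 replicate 1, 2 or 4 and without day 7 replicate 1, 2 or 4, 16 with the replicate number as a block or with no filter on dim probes and 15 with scaling to the median, while the median ran from 0.37 to 0.53 over all alternatives. Sdha, the catalytic subunit of succinate dehydrogenase, read 4.51, 4.57, 4.63 and 4.41 at day 3 and 5.41, 5.67, 5.42 and 5.59 at day 7. It rose 1.99-fold (0.99 ± 0.13 SE, adjusted p = 0.000671), and sham averaged 5.58 ± 0.15 (SD, n = 4). Ndufv2 of complex I rose 1.77-fold (adjusted p = 0.00964). Mpc1, the pyruvate carrier of mitochondria, rose 2.42-fold, from 2.26, 2.34, 2.93 and 2.04 to 3.57, 3.81, 3.25 and 4.03 (adjusted p = 0.00204). In the citrate cycle list 9 of 28 rose and 1 fell (median 0.30), with 35.7% called in either direction, against 31.4% of all genes. In the glycolysis list 4 of 25 were higher and 3 lower, shares near those of all genes (median 0.03, of either sign by scaling): Hk1, a hexokinase, and Pfkfb4, which sets the flux of glycolysis, rose 1.90-fold and 3.17-fold, and Eno2, an enolase, fell 2.25-fold, or by 0.54 on the log2 scale with the mean of its probes against -1.17.

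**Figure D3:**
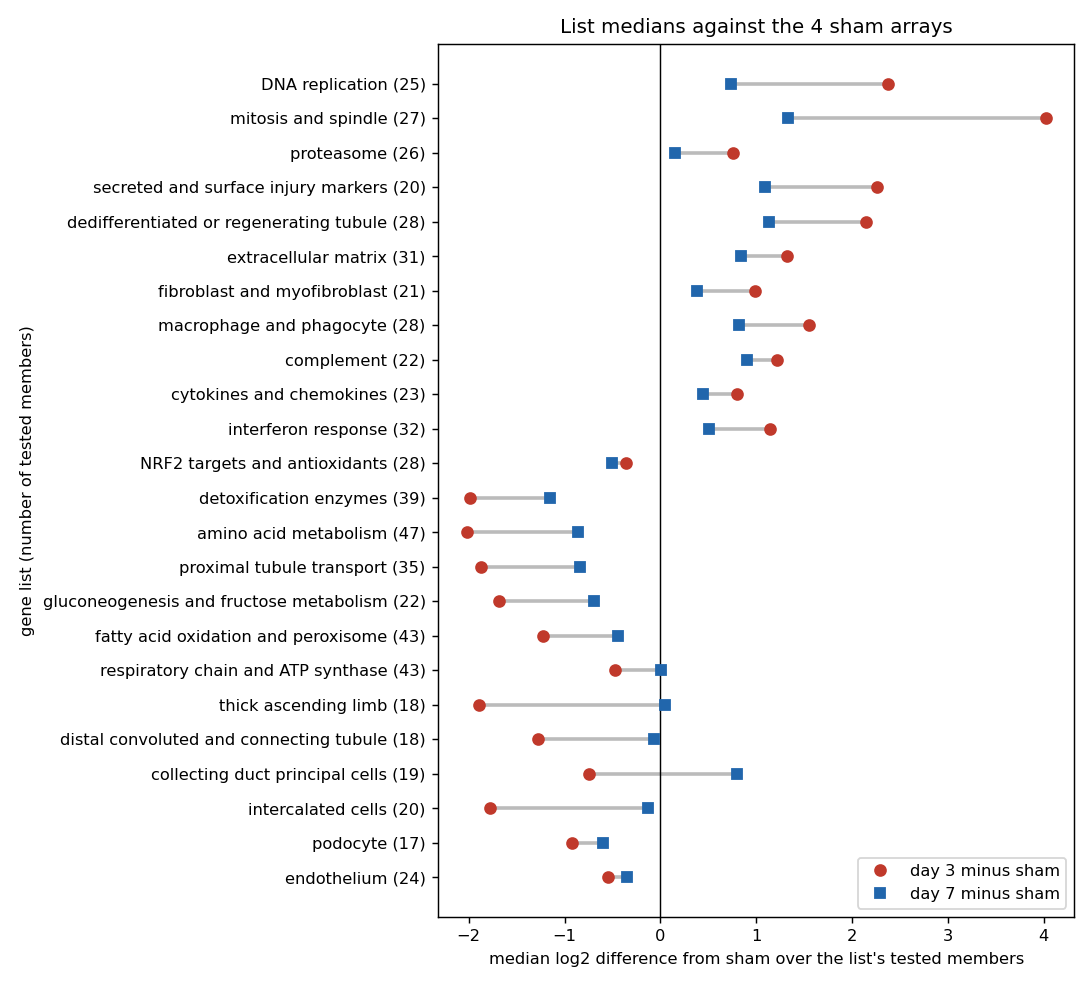
For 24 gene lists, the median log2 difference from the 4 sham arrays is plotted at day 3 (red circles) and at day 7 (blue squares), with the number of tested members beside each name. The respiratory chain, thick ascending limb, distal tubule and intercalated cell lists stand within 0.2 of sham at day 7, the collecting duct principal cell list lies above it at 0.80, and proximal tubule transport, amino acid metabolism and detoxification enzymes remain below it at -0.84, -0.86 and -1.15.

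Detoxification enzymes rose in 23 of 39 genes and fell in 3 (median 0.93), with 14 higher without day 3 replicate 1 or 4 and 15 without day 3 replicate 2 or day 7 replicate 2. They had the lowest median against sham at day 7 of the lists plotted, -1.15, with 20 genes below and 1 above. Sult1c2, a sulfotransferase, read -2.18, -1.87, -0.61 and -3.87 at day 3 and -0.70, 1.39, 0.40 and 1.54 at day 7, a rise of 6.92-fold (adjusted p = 0.0072) with 1 pair of arrays crossing between the groups. Cyp4a8, a fatty acid hydroxylase, rose 3.24-fold (adjusted p = 0.00317) and was 3.21-fold below sham (adjusted p = 0.00463) by its brighter probe. A second probe of similar level rose by 1.02 in log2 (adjusted p = 0.00294). Its difference from sham at day 7 did not pass (-0.50, adjusted p = 0.0804). Gstp1, a glutathione transferase, fell 2.001-fold (adjusted p = 0.0018).

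Of 28 tested antioxidant genes, most of them known targets of the factor NRF2, 0 rose and 7 fell (median -0.15), and at day 7, 14 were below sham and 3 above (median -0.50). Between the days 25% of them were called, against 31.4% of all genes (13.4% lower). Gpx2, a glutathione peroxidase, read 3.67, 3.55, 3.79 and 3.46 at day 3 and 2.21, 1.84, 2.99 and 1.18 at day 7, a fall of 2.95-fold (adjusted p = 0.00395) toward a sham level of 0.76 ± 0.23 (SD, n = 4). Gclm, the regulatory subunit of glutathione synthesis, read -2.07, -1.67, -1.56 and -1.88 at day 3 and -3.33, -3.63, -4.46 and -5.65 at day 7, where 2 of 4 arrays were above background. It fell 5.56-fold (adjusted p = 0.0035), or by 0.95 on the log2 scale by normexp without spots below their local background against -2.47, and was below sham, which averaged -1.37 ± 0.72 (SD, n = 4). The catalytic subunit gene Gclc stood at 0.16 ± 0.34 SE (adjusted p = 0.738) and the NRF2 target Osgin1 at 0.29 ± 0.24 SE (adjusted p = 0.375), and both were over 8-fold below sham at day 7 (8.25-fold and 8.68-fold). In the cholesterol and fatty acid synthesis list 6 of 26 genes fell and 1 rose (median -0.44), with 2 lower without day 3 replicate 4. The share called in either direction was 26.9%, against 31.4% of all genes. Msmo1, a demethylase of sterol synthesis, fell 2.43-fold, from 2.04, 2.49, 2.02 and 2.81 to 1.24, 0.81, 1.19 and 0.99 (adjusted p = 0.00139), and Fdft1, the squalene synthase, rose 1.52-fold (adjusted p = 0.00722).

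Transcription factors of the tubule rose in 20 of 32 genes and fell in 1 (median 0.84), and 15 to 20 rose when any 1 array was left out. Hnf4a, the factor that holds the proximal tubule program, read 1.08, 1.27, 1.63 and 0.40 at day 3 and 1.95, 2.55, 2.35 and 2.69 at day 7. It rose 2.44-fold (adjusted p = 0.00683) without overlap and was 1.93-fold below sham at day 7 (adjusted p = 0.0358). Ppara, the receptor that switches on fat oxidation, read -2.75, -2.56, -2.44 and -3.50 at day 3 and -1.93, -1.14, -1.60 and -1.10 at day 7, a rise of 2.59-fold (adjusted p = 0.00355) that left it 3.89-fold below sham (adjusted p = 0.000885). Ppargc1a, the coactivator of mitochondrial genes, rose 1.96-fold (adjusted p = 0.00957) and Nr3c2, the aldosterone receptor of the distal nephron, 3.19-fold (adjusted p = 0.00125). Both ended at levels not called different from sham. Cebpb, a factor of inflammatory and acute phase genes, fell 1.52-fold (adjusted p = 0.00996).

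Hormone and vasoactive genes of the kidney rose in 8 of 22 and fell in 1 (median 0.70). Vdr, the vitamin D receptor, read 1.14, 0.70, 1.45 and 0.64 at day 3 and 3.08, 3.16, 3.17 and 2.79 at day 7, a rise of 4.20-fold (adjusted p = 0.000129) to a level that overlapped sham. Kl, which encodes klotho, the partner of the phosphate hormone FGF23, rose 2.95-fold, from 0.18 ± 0.24 to 1.74 ± 0.27 (SD, n = 4 each; adjusted p = 0.000667). Klk1, the kallikrein that releases kinins, rose 10.4-fold, from 0.38, 1.30, 2.18 and 0.10 to 4.00, 4.31, 3.98 and 5.17 (adjusted p = 0.000599). Probes of its close relatives Klk1c2, Klk1b3 and Klk1c8 rose 14.6-fold, 9.27-fold and 8.63-fold (Klk1c2 by 3.21 in log2 by normexp without spots below their local background against 3.87), and since these genes are near copies, which of them is measured by each probe is uncertain.

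Of 23 growth factor ligand and receptor genes 8 were higher and 3 lower (median 0.25), the share lower near the 13.4% of all genes. Besides Egf, the binding protein genes Igfbp5 and Igfbp3 rose 4.51-fold and 3.21-fold (adjusted p = 0.000169 and 0.00263). Igfbp5 read 1.24, 0.45, 1.11 and 0.58 at day 3 and 2.51, 3.35, 2.93 and 3.29 at day 7, without overlap. Met, the receptor of hepatocyte growth factor, fell 2.22-fold, from 1.75 ± 0.30 to 0.60 ± 0.63 (SD, n = 4 each; adjusted p = 0.0108), to its sham level of 0.77 ± 0.19 (SD, n = 4). Myc, a driver of growth in the immediate early list, fell 3.06-fold, from 0.84, 0.98, 1.15 and 0.88 to -0.58, -1.49, 0.02 and -0.55 (adjusted p = 0.00364). Junb of the same list rose 1.74-fold (adjusted p = 0.00907). Of the immediate early list 36.8% was called in either direction, against 31.4% of all genes. That list had 5 of 19 lower and 2 higher (median -0.76), but 12 lower without day 7 replicate 3, 2 without day 7 replicate 4, 3 without day 3 replicate 4 or day 7 replicate 2, and 8 with scaling to the median or by normexp without spots below their local background. The stress factor genes Fos and Atf3 were not called (adjusted p = 0.0869 and 0.0577), and both passed without day 7 replicate 3. Atf3 also passed with scaling to the median, with the replicate number as a block and by normexp without spots below their local background (-1.06 in log2), while Fos stood at -0.44 in the last of these. No sham array was above background for either, and at day 7 Fos was at least 1.88-fold and Atf3 at least 3.15-fold above sham (adjusted p = 0.0259 and 0.00625).

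Matrix genes lay above sham at day 7 more often than below it. Of 31 extracellular matrix genes 5 fell (16.1%, near the 13.4% of all genes) and 0 rose (median -0.44). By normexp without spots below their local background 11 were lower. At day 7, 16 were above sham and 1 below (median 0.84). Col1a1, the main chain of collagen I, read 4.75, 4.67, 5.61 and 4.94 at day 3 and 4.49, 4.71, 4.32 and 4.40 at day 7. The difference did not pass (-0.51 ± 0.27 SE, adjusted p = 0.161), and at day 7 it was 3.83-fold above sham (adjusted p = 0.00117). A second, dimmer probe of Col1a1 stood 4.16 above sham in log2 (adjusted p = 0.00338) against 1.94, so the size depends on the probe. Col3a1 stood at -0.44 ± 0.21 SE (adjusted p = 0.137) and was 3.96-fold above sham. Mmp2, a collagenase of remodelling tissue, read 1.32, 0.65, 1.61 and 0.98 at day 3 and 1.46, 1.42, 0.73 and 1.64 at day 7 (0.17 ± 0.26 SE, adjusted p = 0.635) and was 4.76-fold above sham. Fn1, which encodes fibronectin, did fall, from 3.88, 3.66, 3.76 and 4.16 to 2.99, 2.72, 3.13 and 1.46 (2.44-fold, adjusted p = 0.0128), and was 3.95-fold above sham at day 7 (adjusted p = 0.00257). Serpinh1, the collagen chaperone, and Pcolce, which aids collagen trimming, fell 2.02-fold and 1.94-fold.

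In the fibroblast and myofibroblast list 5 of 21 genes fell and 1 rose (median -0.32). The share called in either direction was 28.6%, against 31.4% of all genes. Myl9, a myosin light chain, read 1.93, 2.28, 2.60 and 2.33 at day 3 and 0.08, 0.59, 1.096 and 0.10 at day 7, a fall of 3.53-fold (adjusted p = 0.000801) to the sham level. Tagln, an actin-binding protein of smooth muscle, fell 4.78-fold (adjusted p = 0.00264) and Acta2, smooth muscle actin, 2.36-fold (adjusted p = 0.00285). S100a4, a calcium-binding protein of motile cells, fell 4.71-fold (adjusted p = 0.000901) and remained 4.17-fold above sham (adjusted p = 0.00168). The platelet-derived growth factor receptor genes Pdgfra and Pdgfrb stood at -0.07 and 0.25.

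In the macrophage and phagocyte list 9 of 28 fell and 3 rose (median -0.57), with 5 lower without day 3 replicate 4, and the summed level of the list was 138 to 171 at day 3 and 161 to 187 at day 7, against 92.4 to 109 in sham. Axl, a receptor for dying cells, read 3.42, 3.39, 2.36 and 3.93 at day 3 and 1.35, 1.36, 1.69 and 0.89 at day 7, a fall of 3.87-fold (adjusted p = 0.0015). Its relative Mertk was above background on no day 3 array and on 2 of 4 day 7 arrays and was at least 2.22-fold higher at day 7 (adjusted p = 0.015). Apoe, the lipid carrier apolipoprotein E, read 5.73, 5.63, 6.11 and 5.41 at day 3 and 6.73, 6.62, 6.57 and 6.76 at day 7. It rose 1.93-fold (adjusted p = 0.00255) to 2.27-fold above sham (adjusted p = 0.0012), and as the brightest member it weighs most in the list's sum. Trem2, a lipid receptor of macrophages, stood at -0.46 ± 0.30 SE (adjusted p = 0.25) and was 10.3-fold above sham at day 7 (adjusted p = 0.000102).

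Complement genes were above sham in 15 of 22 at day 7, and 5 rose and 2 fell between the days (median -0.14, or 0.00733 without day 7 replicate 4). The share called between the days in either direction, 31.8%, was near the 31.4% of all genes. C6, of the membrane attack complex, read -1.34, -1.67, -1.55 and -1.50 at day 3 and 0.09, -0.49, -0.71 and -0.17 at day 7, a rise of 2.29-fold (adjusted p = 0.00283) to 5.51-fold above sham. C5 rose 3.66-fold (adjusted p = 0.00209), from below sham at day 3 to its level. The probe of C4a, which cannot be told from its near copy C4b, rose 3.29-fold (adjusted p = 0.0048) to 14.04-fold above sham. C3, the central component, stood at -0.28 ± 0.43 SE (adjusted p = 0.631).

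Among cytokines and chemokines 7 of 23 fell and 1 rose (median -0.47), but by normexp 0 fell and the median was 0.076. Among interferon response genes 9 of 32 fell and 2 rose (median -0.66). The shares called in either direction, 34.8% of the cytokine list and 34.4% of the interferon list, were near the 31.4% of all genes. With only the 8 injured arrays in the fit 14 interferon genes were lower, and with only genes above background on all of them 4 cytokine genes. Irf7, the factor that amplifies interferon, read -0.45, -0.36, 0.09 and 0.48 at day 3 and -1.24, -2.38, -1.36 and -1.33 at day 7, a fall of 2.86-fold (adjusted p = 0.00271) to the sham level. Mx2, which is itself induced by interferon, rose 2.07-fold, from 5.78 ± 0.18 to 6.82 ± 0.31 (SD, n = 4 each; adjusted p = 0.00405). The neutrophil list had 5 of 14 genes tested, T and NK lymphocytes 20 of 29 and B lymphocytes and plasma cells 6 of 15, and in each 1 gene was called. These shares, 20%, 5% and 16.7%, lay below the 31.4% of all genes. Lysosome genes rose in 7 of 29 and fell in 0 (median 0.08), but in 3 without day 3 replicate 2 or 4 or day 7 replicate 4, and in 4 without day 7 replicate 2 or with the replicate number as a block. The 24.1% that rose compare with 18% of all genes, whose median was 0.05. Ctsc, a protease of lysosomes, rose 1.77-fold (adjusted p = 0.00921).

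Podocytes, the filtering cells of the glomerulus, and endothelium were also covered. In the podocyte list 4 of 17 rose and 1 fell (median 0.09, or -0.0036 with genes above background on all 8 injured arrays). The share called in either direction, 29.4%, was near the 31.4% of all genes. Col4a3, a collagen of the glomerular basement membrane, read -1.70, -1.92, -1.41 and -2.15 at day 3 and -0.92, 0.60, 0.09 and 0.86 at day 7, a rise of 3.87-fold (adjusted p = 0.00183), while Cd2ap, an adaptor of the slit diaphragm that tubules also express, fell 2.36-fold (adjusted p = 0.00256). In the endothelium list 3 of 24 rose and 2 fell (median 0.25), shares below those of all genes. Vwf, the von Willebrand factor, rose 2.64-fold and was 3.01-fold below sham (adjusted p = 0.0078 and 0.00619), and Plat, the tissue plasminogen activator, fell 2.88-fold (adjusted p = 0.00217). The vessel markers Pecam1 and Kdr stood at 0.38 ± 0.25 SE and 0.42 ± 0.23 SE (adjusted p = 0.25 and 0.175).

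Some genes of neighbouring tissue also differed between the groups. In the adrenal list 4 of 7 tested genes rose and 0 fell (median 0.89), and its summed level was 1.18 to 1.45 at day 3, 1.79 to 2.83 at day 7 and 2.38 to 3.60 in sham. Of the defining markers, Cyp21a1, a steroid hydroxylase, rose 1.88-fold (adjusted p = 0.00109) and Th, the first enzyme of catecholamine synthesis, 2.48-fold (adjusted p = 0.00405), while Cyp11b1 and Cyp11b2 of the adrenal cortex did not pass the filter on dim probes. In the blood and skeletal muscle list 2 of 9 rose (22.2%, near the 18% of all genes). Its largest log2 rise was 2.34, the size of that of Slc4a1, which intercalated cells also express. The sum of the list was 6.28 to 11.7 at day 3, 9.71 to 15.85 at day 7 and 15.04 to 26.4 in sham. In the adipose list 0 of 7 were called. The part of such tissue in the results above was not tested.

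Arrays within a group also differed from each other in the summed levels of some lists. The summed level of the proximal tubule transport genes was 114, 113, 173 and 76.7 on day 3 replicates 1 to 4 and 182, 275, 195 and 312 on day 7 replicates 1 to 4, against 434 to 466 in sham. That of the dedifferentiated tubule genes was 357, 369, 294 and 430.1 at day 3 and 229.5, 160.4, 239 and 139 at day 7. At day 3, replicate 3 had the highest transport sum and the lowest sums of dedifferentiation and mitosis genes, and replicate 4 the reverse. At day 7, replicates 2 and 4 had the higher transport sums and the lower sums of dedifferentiation and mitosis genes. Replicate 1 and replicate 4 of day 7 lay on the same slide. Day 3 replicate 3 and day 7 replicate 2 were the only arrays of their groups on slide 1 and in scan batch 1. For these 2 arrays, a difference of the rat and one of the batch cannot be told apart. The collecting duct sum followed another order, from 68.7 on day 7 replicate 2 to 91.7 on replicate 1, and all 4 lay above the highest sham array at 51.4.

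**Figure D4:**
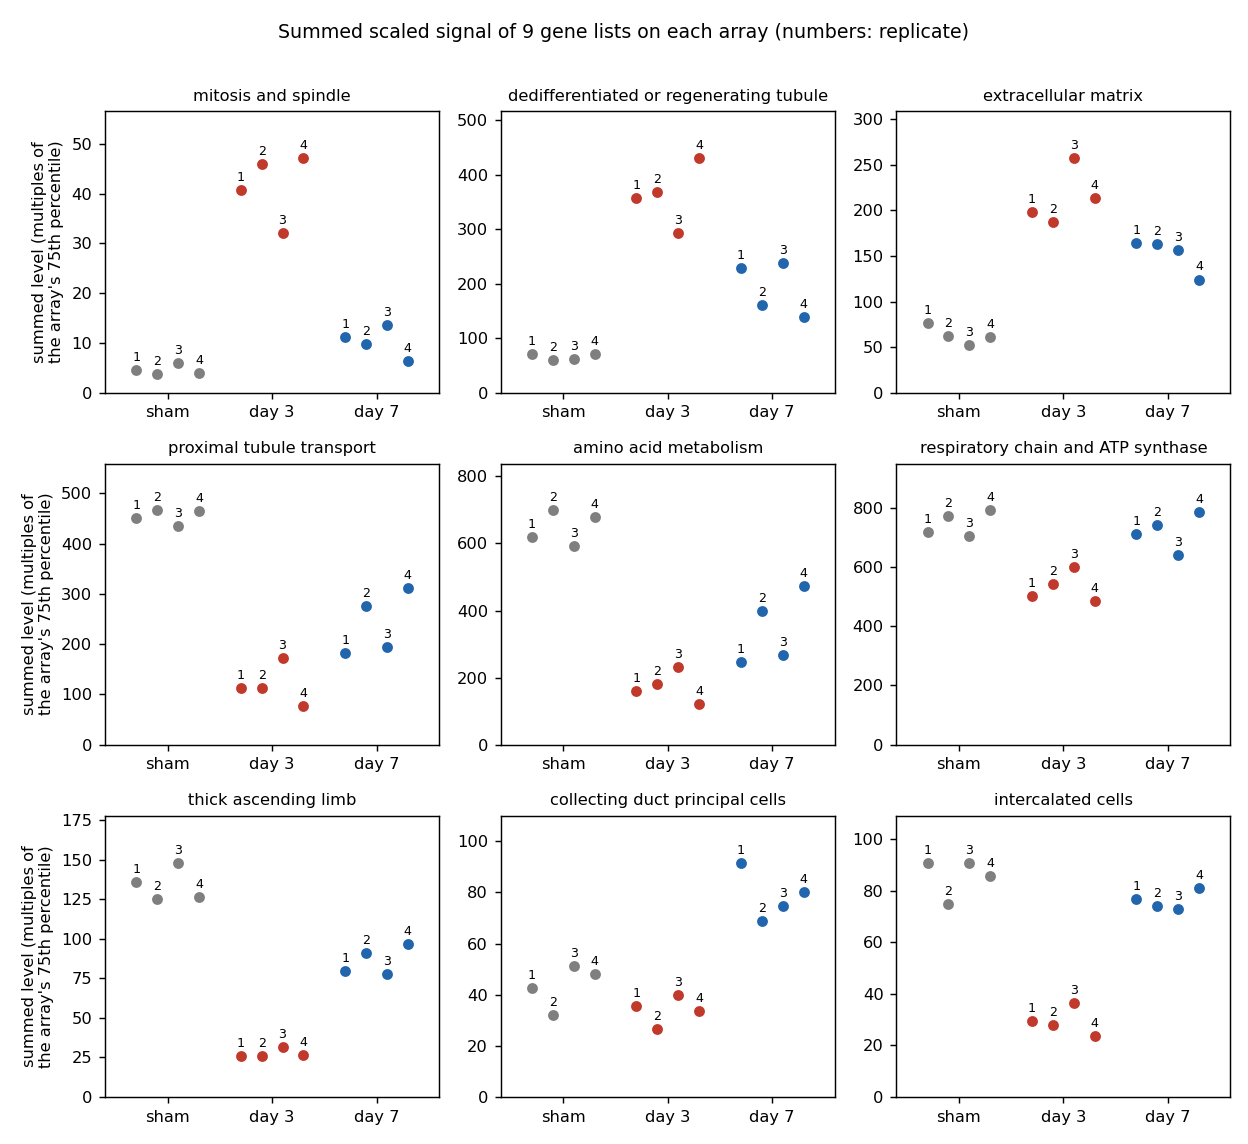
Each panel plots the summed linear signal of a list's tested genes, as multiples of the 75th percentile of the array, for the 4 replicates (numbered) of sham, day 3 and day 7. Day 7 replicates 2 and 4 are higher than 1 and 3 in proximal tubule transport (275 and 312 against 182 and 195) and lower in dedifferentiated tubule genes, whereas the 4 day 7 arrays of the intercalated cell list span only 72.9 to 81.3.

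Among the largest changes were genes outside all lists. Slc16a7, a monocarboxylate transporter, read -2.82, -3.44, -3.13 and -2.98 at day 3 and 0.10, 0.27, 0.33 and -0.09 at day 7, a rise of 9.49-fold (adjusted p = 4.31e-06) to a level that overlapped sham. Its log2 rise was 2.44 by normexp without spots below their local background against 3.25. Fam25a had the largest fall among called genes with a gene symbol whose groups did not overlap and that stood above background on all injured arrays. It fell 23.3-fold, from 1.09, 2.43, 1.56 and 4.24 to -2.38, -2.59, -1.54 and -2.34 (adjusted p = 0.000695). Its log2 fold change was -4.54, or -3.91 without day 3 replicate 4, -3.74 with the mean of its probes and -3.78 by normexp without spots below their local background. Sdc1, the cell surface proteoglycan syndecan 1, fell 5.73-fold (adjusted p = 0.00421), from 1.13 ± 0.67 to -1.39 ± 0.91 (SD, n = 4 each). Gprc5a, an orphan receptor of epithelia, was above background on all day 3 arrays and on no day 7 array. It was at least 9.68-fold lower, the largest such bound among called genes with a gene symbol. Its log2 fold change was -1.99 by normexp without spots below their local background. It was above background on no sham array either. Cyp3a9, a cytochrome, was at least 7.02-fold lower, or -2.11 in log2 by normexp without spots below their local background, and its day 3 value rested in part on replicate 4 at 0.76 against -1.39, -1.29 and -2.24.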

How the data were processed

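RNA of 12 rat kidneys, 4 in each group, was hybridised to single-colour arrays on 3 slides that each held all 3 groups. Per the file headers, the deposited scanner files were made with Agilent Feature Extraction 9.5.1.1 and hold a processed intensity per spot, which the authors' scanner software had corrected for background, with detection flags, on probes placed on build rn4. The deposited value table of the authors holds log2 values centred per probe. Its column medians ran from -0.21 to 0.3, its correlation with the scanner values was 0.998 to 0.999, and its own scaling and centring are not given in the sources used here. It served only as an alternative.

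Spots of a probe were averaged, and log2 processed intensity minus the 75th percentile of the array was taken. A probe was kept where some group had it well above background on each of its 4 arrays (21064 probes), and a gene took its brightest probe. Of 30367 probes, 18343 were named by accession, 2213 by symbol and 595 by synonym through RefSeq, and 9216 kept the name in the files. Among 2316 genes with several tested probes, 12 had probes called in opposite directions. One limma 3.58.1 model (R 4.3.3) was fitted to all 12 arrays, with empirical Bayes moderation, and p-values were adjusted by Benjamini-Hochberg over all 18505 genes. Where a whole group lay at background, the fold is a lower bound, taken from the lowest signal above background on those arrays. The script was tested on simulated data. Where nothing says the kidneys were processed apart, p-values measure the spread between these arrays.

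The 46 lists held 1219 genes, of which 1198 had a probe and 1069 were tested. The members and lists were chosen with earlier results of these data known. Named genes were those with the 15 largest rises and falls, and the 5 largest bounds each way, among called genes with a gene symbol rather than an accession. The rises and falls were taken among non-overlapping genes above background on all injured arrays. Also named were the 3 largest called rises and falls of each list, members whose probes disagreed, and a fixed set of markers. Kif11, Cd24, Cldn3, Cldn4, Cldn7, Cldn8, Hba-a1, Hbb, Slc7a13, Gclc, Osgin1, Pdgfra and Pdgfrb are list members outside that rule and were chosen after their values were seen. Alternatives covered background correction, scaling, the filter, the probe rule, slide, scan batch and replicate number as blocks, the arrays in the fit and each array left out. Deviations of same-numbered arrays correlated at -0.33 to 0.0155, so the replicate numbers did not pair the arrays. Some items are not reported here.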

Additional observations from a re-analysis of the deposited data

Results flagged for a closer look

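In 288 groups of 4 gene values (144 genes named above, at day 3 and day 7) 9 held 1 array far from the other 3, and among 92 groups of list sums 3 did. Chance gives about 1 in 20 groups. At day 7, Irf7 read -2.38 on replicate 2 against -1.36 to -1.24 on the other arrays, Mcm3 read -1.26 on replicate 1 against -2.04 to -2.03, and Th read -2.07 on replicate 3 against -1.16 to -1.02. Rhcg read 3.12 on replicate 2 against 3.00 to 3.01, a gap of little size. Day 7 replicate 4 stood highest for the kallikrein genes Klk1b3 (2.30 against 0.60 to 0.89) and Klk1c8 (2.84 against 1.65 to 1.69) and for the podocyte gene Nphs1 (0.00457 against -1.38 to -1.19). Nphs1 was called higher at day 7, a call lost with the slide as a block and without day 3 replicate 1, 2 or 4. At day 3, Lcn2 read 0.71 on replicate 4 against 0.19 to 0.27, and Nr3c2 read -2.90 on replicate 2 against -1.82 to -1.73. The summed level of the renal endocrine genes was 24.3 on day 3 replicate 3 against 15.2 to 15.6, and that of the thick ascending limb genes 31.4 on the same array against 25.7 to 26.5. The sum of the MHC class II genes was 112 on day 7 replicate 3 against 121 to 122.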

How the results depend on the processing

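The count of called genes was 3474 to 6124 when 1 array was left out (1992 to 3627 higher, 1482 to 2497 lower, 1661 to 3002 at least 2-fold). It moved by over 1.5 times without day 3 replicate 4 (3474, of which 1992 higher and 1482 lower), without day 3 replicate 2 (3705, 2068 and 1637) and without day 7 replicate 4 (3862, 2113 and 1749). By normexp it was 159 (82 higher, 77 lower, 158 at least 2-fold), and without spots below their local background 5135 genes were higher and 1363 at least 2-fold. With the replicate number as a block 4694 genes were called, 2713 higher, 1981 lower and 2227 at least 2-fold, and with the slide as a block 4915. Under the other alternatives the count was 5268 to 6865. Of the 198 named and called genes, 172 to 196 kept the call with 1 array left out, 185 with the replicate block and 44 by normexp. Direction changed for Cd55 (0.28 by normexp, 0.0655 with no filter), Egfr (0.18 by normexp) and Nqo1 (0.14 by normexp). List medians that changed sign by normexp were those of p53 targets (0.0387), cytokines (0.076), matrix turnover (0.0715) and T and NK lymphocytes (0.35). The last was also 0.18 by normexp without spots below their local background, 0.16 with genes above background on all 8 injured arrays and -0.169 to 0.0298 when 1 array was left out, the highest without day 7 replicate 4. The glycolysis median was -0.011 scaled to the total, -0.018 scaled to the median and -0.028 with the slide as a block. The medians of neutrophil (-0.0155) and podocyte genes (-0.0036) turned with genes above background on all 8 injured arrays, that of B lymphocytes with the slide as a block (-0.048) and without day 7 replicate 1 (-0.000328 to 0.12 over all arrays left out), and that of complement without day 7 replicate 4 (-0.201 to 0.00733 likewise). The causes were not tested. Signal over background limits dim genes: 123 called genes were above background on no day 7 array and 26 on no day 3 array.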
